A study of Mus musculus with 17 samples.

Results

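The genes described here encode 7 peptide precursors of the lateral and dorsomedial hypothalamus: Hcrt, Pmch, Gal, Nts, Tac1, Qrfp and Npvf. They were listed by name, with no threshold on their values, out of 21887 protein-coding genes. Every H3K27ac peak that overlapped the RefSeq span of a gene or the 50 kb on either side of it was taken, which gave 80 of the 183678 peaks in the list. H3K27ac, an acetylated lysine of histone H3 found at active promoters and enhancers, was profiled with CUT&Tag, where transposase bound through an antibody cuts and tags the DNA that carries the mark. The tissue was dissected mouse hypothalamus, and 3 bulk samples titled as biological replicates share 1 deposited peak list. The series also holds 7 DNA and 7 RNA sub-libraries of Paired-Tag from hypothalamus, made with antibodies against H3K27ac and H3K27me3, which were not analysed here. The sources used here do not state strain, age, sex or any treatment of the mice.

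The lateral hypothalamus holds scattered neurons that release orexins (from Hcrt) or melanin-concentrating hormone (from Pmch), and these populations act in arousal, sleep and feeding. Neurotensin, galanin and the tachykinins made from Tac1 are found in neighbouring and partly overlapping neurons and also elsewhere in the brain. The RF-amide peptides made from Qrfp and Npvf come from small groups of hypothalamic neurons. Each peptide is cut from a longer precursor, packed into dense core granules and sensed by G protein-coupled receptors.

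Peaks within 1 kb of a gene end were present for all 6 genes used as hypothalamic markers and all 4 neuronal markers, and for 1 of 5 pituitary markers, 2 of 4 cortical and 3 of 3 thalamic ones, beside 69.2% of all protein-coding genes. The fold of these peaks, a ratio over background, ranged from 1.64 (Six3) to 14.8 (Pomc) for hypothalamic markers, from 2.78 to 16.5 for neuronal ones and from 3.57 to 6.86 for thalamic ones. It was 10.4 for the pituitary marker (Tshb) and 4.55 and 5.06 for the cortical ones (Tbr1 and Neurod6). The markers therefore do not separate hypothalamus from thalamus in this list. The thalamic list includes Tcf7l2, which is also among the hypothalamic transcription factors described later. Since the list gives neither reads nor values for separate replicates, depth is unknown, no spread between animals can be given and every comparison is a description without a test. In bulk tissue, few cells carrying the mark and little of the mark per cell cannot be told apart.

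H3K27ac peaks covered the transcription starts of Tac1, Gal and Nts, lay inside Hcrt and Qrfp but away from their starts, and were absent from Pmch and Npvf. Peaks overlapped the stretch from 250 bases before to 50 bases after the start in 3 of the 7 genes, beside 65.4% of 17492 protein-coding genes whose start is listed. Among genes of at most 10 kb, the size class of all 7, that share was 43.6%. The 250 bases before the start are printed for 5 of the genes, since they show the starts with a peak (Tac1, Gal and Nts) beside starts without a peak (Hcrt and Npvf). All are from RefSeq, build GRCm38.p6 (mm10), written 5′ to 3′ along the gene. Capitals mark matches, on either strand, to TATAAA (the TATA box core), TGACG (part of the cAMP response element), TGANTCA (the AP-1 core), TAATTA (bound by many homeodomain proteins), CCAAT (the CCAAT box) and GGGCGG (a GC box).
Tac1: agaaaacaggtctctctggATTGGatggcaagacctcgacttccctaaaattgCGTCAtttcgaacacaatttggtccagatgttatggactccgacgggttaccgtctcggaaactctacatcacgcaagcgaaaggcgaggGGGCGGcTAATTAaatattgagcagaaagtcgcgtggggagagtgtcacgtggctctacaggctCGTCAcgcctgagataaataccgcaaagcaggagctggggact
Gal: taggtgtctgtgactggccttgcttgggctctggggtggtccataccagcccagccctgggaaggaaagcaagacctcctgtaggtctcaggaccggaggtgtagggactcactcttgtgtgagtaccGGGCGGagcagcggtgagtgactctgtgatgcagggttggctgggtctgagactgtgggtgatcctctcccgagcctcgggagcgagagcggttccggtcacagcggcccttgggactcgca
Nts: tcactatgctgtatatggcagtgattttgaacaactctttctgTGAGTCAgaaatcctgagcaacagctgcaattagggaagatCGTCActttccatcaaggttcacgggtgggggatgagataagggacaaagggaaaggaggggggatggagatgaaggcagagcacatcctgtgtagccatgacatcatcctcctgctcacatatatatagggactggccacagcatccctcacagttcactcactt
Hcrt: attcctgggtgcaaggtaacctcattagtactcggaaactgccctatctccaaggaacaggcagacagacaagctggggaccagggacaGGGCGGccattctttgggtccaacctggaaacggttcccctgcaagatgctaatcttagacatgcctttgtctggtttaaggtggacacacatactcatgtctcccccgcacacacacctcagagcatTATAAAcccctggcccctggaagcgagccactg
Npvf: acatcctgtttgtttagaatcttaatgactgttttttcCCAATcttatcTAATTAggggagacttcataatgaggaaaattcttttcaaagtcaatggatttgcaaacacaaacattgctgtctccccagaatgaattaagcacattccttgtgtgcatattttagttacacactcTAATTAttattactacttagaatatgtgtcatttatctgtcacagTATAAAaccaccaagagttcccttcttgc

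These stretches lie at chr6:7554811-7555060 on the plus strand for Tac1, chr19:3414545-3414794 on the minus strand for Gal and chr10:102490419-102490668 on the minus strand for Nts. Those of Hcrt and Npvf are chr11:100762932-100763181 on the minus strand and chr6:50654446-50654695 on the minus strand. The peaks held all 250 bases for Tac1 and for Gal, the 63 bases nearest the start for Nts, and none for the other 4 genes.

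TATAAA was found in the stretches of Hcrt, Pmch and Npvf and in none of the 3 with a peak at the start. It was also absent from Qrfp, which had no peak at the start and no match to any motif searched. The match lay 33 to 28 bases before the start of Hcrt, 27 to 22 before that of Pmch and 29 to 24 before that of Npvf. TATAAA occurred in 11.6% of the 21263 listed stretches of protein-coding genes. A peak overlapped 32.7% of starts with TATAAA and 69.5% of starts without it. TAATTA was found in Npvf (2 matches) and Tac1 (1 match), against 4.31% of all stretches, and TGANTCA in Nts and Pmch, against 6.13%. GGGCGG was found in Hcrt, Gal and Tac1 (42.6% of all), CCAAT in Tac1 and Npvf (35.4%), and TGACG in Nts and Tac1 (20.2%). CANNTG, not capitalised above, was found in Pmch, Nts and Tac1 (62.8% of all), and TGACGT, which contains TGACG, in none of the 7 (7.37% of all). A match describes letters only and is no evidence that a factor binds.

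CpG content separated the start of Tac1 from the others. The ratio of observed to expected CpG in the 250 bases before the start was 1.05 in Tac1, higher than in 95.03% of the 21263 stretches. It was 0.469 in Gal, 0.398 in Qrfp, 0.335 in Pmch, 0.282 in Hcrt, 0.140 in Nts and 0 in Npvf. Across all protein-coding starts, a peak overlapped 96.2% of those in the upper tertile of this ratio, 76.5% in the middle tertile and 22.95% in the lower one. Tac1 was in the upper tertile, Gal, Qrfp and Pmch in the middle, and Hcrt, Nts and Npvf in the lower. Nts thus had a peak in a class where most starts had none, and Qrfp and Pmch had none at the start in a class where most did. With 7 genes chosen by name, this is a description.

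**Figure D1:**
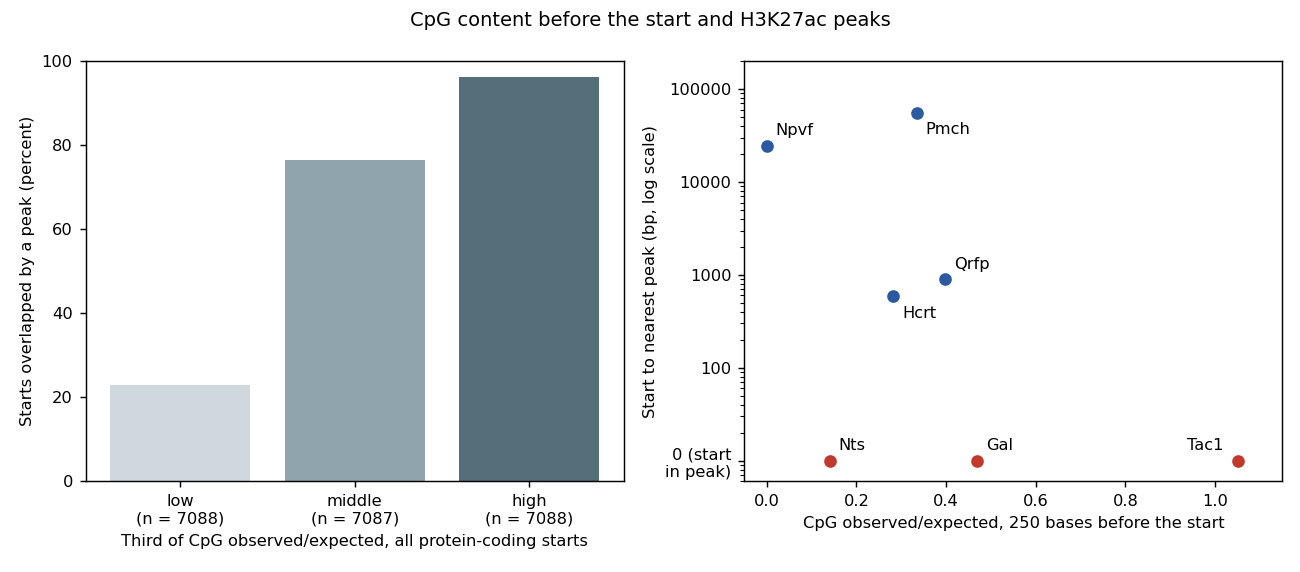
Left: percent of protein-coding starts overlapped by an H3K27ac peak, by tertile of the observed to expected CpG ratio, with bars at 22.95%, 76.5% and 96.2%. Right: that ratio for the 7 genes (x axis) against the distance in bp from the start to the nearest peak (y axis, log scale, with 0 drawn at the foot); red points are genes whose start lies in a peak, blue points the others.

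Tac1, which encodes substance P and neurokinin A, had the highest fold of any peptide-gene end in the group. Its peak at chr6:7554493-7556846 ran from 568 bp before the start to 1785 bp after it, with a fold enrichment of 6.94 and a −log10 q of 48.1. Fold, a linear ratio over the peak caller's background, and q are the authors' values for each peak and serve here to describe peaks within this list. The peak was 2354 bp wide, wider than 99.4% of all peaks, and its summit lay 128 bp after the start. Its fold was nevertheless higher than that of only 30.9% of genes with a peak at the start, whose median was 9.22 over 11445 genes. The Tac1 window held no other protein-coding gene, and the 2 further peaks in it were intergenic, 11443 to 12416 bp and 49868 to 50925 bp after the start, with folds of 3.47 and 3.76. The 3 peaks covered 4.06% of the window.

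Gal, the galanin precursor gene, had a weaker peak centred on its start and a run of peaks before it. The start peak, at chr19:3413921-3415388, was 1468 bp wide, with a fold of 3.75, a −log10 q of 24.8 and a summit 14 bp after the start. Its fold exceeded that of 8.01% of genes with a peak at the start. Between 2134 and 37447 bp before the start, 9 intergenic peaks had folds of 2.16 to 4.32 and widths of 405 to 1152 bp. The strongest of them, 13414 to 14188 bp before the start, had a higher fold (4.32) than the start peak. Of the 16 peaks in the Gal window, 14 had a summit nearer to the start of Gal than to any other listed start of a protein-coding gene. The 14 include 2 peaks inside Ppp6r3, with folds of 2.68 and 2.88, and peaks inside Tesmin or near its end. The strongest peak of the window, with a fold of 12.7, lay at the start of Tesmin, 24962 bp beyond the start of Gal. Beyond the 3′ end of Gal, a peak with a fold of 6.12 lay inside Tesmin and a peak with a fold of 4.22 lay within 1 kb of its end.

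Nts, the neurotensin precursor gene, had the narrowest start peak of the 3. It lay at chr10:102490218-102490481, from 63 bp before to 200 bp after the start, and was 264 bp wide. Its fold was 3.03 and its −log10 q 8.20, higher in fold than 3.98% of genes with a peak at the start. The value pair is a common one: 2014 peaks of the list share exactly this fold and q. The other peaks of the window, 38465 to 39015 bp after the start and beyond the 3′ end, were 208 and 180 bp wide with folds of 3.83 and 2.46. The 3 peaks covered 0.600% of the window, and 17.2% of protein-coding genes had less of their window covered.

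Hcrt, the prepro-orexin gene, carried its peak over the 3′ part of the gene. This peak, at chr11:100761616-100762341, was 726 bp wide and began 590 bp after the start. It had a fold of 5.84 and a −log10 q of 89.5, and 649 of its bases lay in the gene, which is 1239 bp long. The summit was 959 bp after the start, so the RefSeq start and the stretch printed above lay outside the peak. No other gene had an end within 1 kb of it. The next peak beyond the 3′ end lay 2844 to 4149 bp after the start of Hcrt, at the start of the potassium channel gene Kcnh4, with a fold of 4.19.

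The orexin gene lay in a window densely covered by peaks, most of them positioned inside or at ends of other genes. The window held 6 other protein-coding genes and 23 peaks, of which 6 lay at ends of those genes and 16 inside them. Only the peak in Hcrt itself had a summit nearer to the Hcrt start than to another start. The strongest peak, with a fold of 12.3, lay at the start of Rab5c, an endosomal GTPase gene, and those at the starts of Ghdc and Kat2a had folds of 5.70 and 5.69. Inside Stat5b, which encodes a cytokine-responsive transcription factor, 7 peaks had folds of 2.51 to 4.33, the highest in an interval of 1992 bp. Peaks covered 18.7% of the Hcrt window, more than for 96.4% of protein-coding genes. Without peaks at ends of other protein-coding genes, 17 peaks remained and the highest fold was 5.84, that of Hcrt itself.

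Qrfp, which encodes an RF-amide peptide that promotes feeding in rodents, had peaks of low fold within the gene and none at its start. A peak at chr2:31808495-31809686 lay wholly inside Qrfp, 894 to 2085 bp after the start, with a fold of 2.86 and a −log10 q of 25.7. Another, 3218 to 4295 bp after the start, had a fold of 2.91 and a −log10 q of 30.1. It overlapped the end of Abl1, so its gene is uncertain. The window held 31 peaks, more than for 90.3% of protein-coding genes, and 17 of them were inside Abl1 with folds of 1.61 to 6.69. The highest of these lay at a start of Abl1, a tyrosine kinase gene. Inside Fibcd1 lay 7 peaks, with folds of 1.89 to 5.33, the highest of them 12034 to 13238 bp before the start of Qrfp. Of the 31 peaks, 10 had a summit nearer to the Qrfp start than to another listed start. Apart from the 2 that overlap Qrfp, these 10 lay inside Abl1 or Fibcd1 and are among the peaks counted there. Peaks covered 19.2% of the window, more than for 97.1% of protein-coding genes.

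Hcrt and Qrfp thus had a peak within 1 kb of the 3′ end and none at the start, a combination held by 3.78% of protein-coding genes with a listed start and 5.49% of those of at most 10 kb. In a gene as short as Hcrt, 1 kb from the 3′ end reaches over most of the gene. Among 30 neuropeptide genes with a listed start, 7 had it (23.3%): Hcrt, Qrfp, Pomc, Ghrh, Tac2, Rln3 and Prlh. In both Hcrt and Qrfp a peak nevertheless lay within 1 kb of the start, so the difference rests on the stretch from 250 bases before to 50 bases after it. For Rln3 and Qrfp the strongest end peak also reached an end of another protein-coding gene.

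Npvf, which encodes RF-amide-related peptides that act on reproduction, had its nearest peaks far upstream. No peak lay within 20 kb of its start, as for 20.7% of protein-coding genes. The nearest, at chr6:50678780-50679794, was 24335 bp before the start and covered the start of the long noncoding RNA gene Gm38808, with a fold of 4.55 and a −log10 q of 30.6. A group of 3 intergenic peaks followed, out to 35761 bp before the start, with folds of 3.12, 2.57 and 5.26. All 4 peaks were upstream of Npvf, and none lay over the gene or downstream of it.

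Pmch, the precursor gene of melanin-concentrating hormone, had no peak in its window. This held for 14.9% of all protein-coding genes and 29.5% of those of at most 10 kb. The nearest peak was 55545 bp after its start, at chr10:88146617-88147490, with a fold of 8.23. It lay at the start of Parpbp, a gene that runs toward Pmch. The other end of Parpbp lies inside Pmch, 326 bp after the Pmch start. Pmch is the gene of the group without any listed peak in the window, beside 6 of 7 with at least 1 (85.1% of all protein-coding genes).

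**Figure D2:**
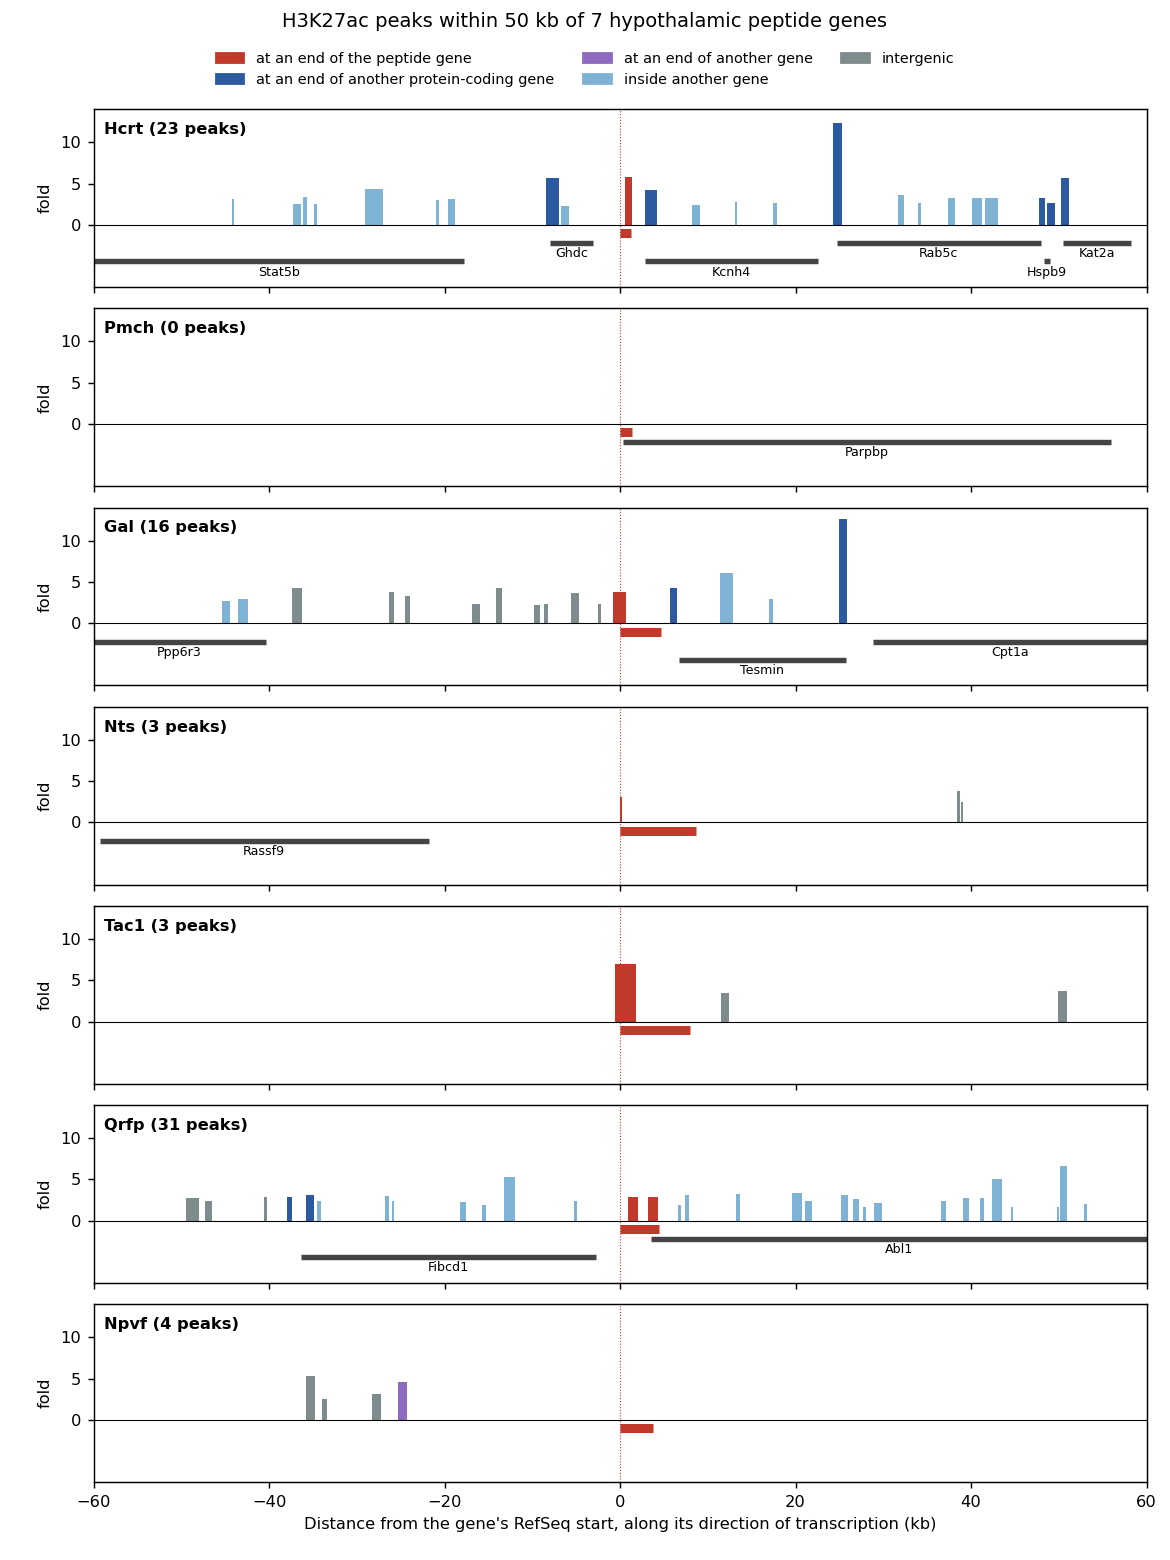
Height (fold, y axis) and position (kb from the RefSeq start along the direction of transcription, x axis) of each of the 80 peaks, coloured by where the peak lies. Red bars below 0 are the peptide genes and grey bars the other protein-coding genes, cut at 60 kb; the narrowest peaks are drawn wider than they are. Peaks sit on the starts of Gal, Nts and Tac1, after the starts of Hcrt and Qrfp, upstream of Npvf, and nowhere in the Pmch window.

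The 7 windows differed widely in the share of their bases covered by listed peaks, a measure that takes no account of fold. The order by covered share was Qrfp (19.2%), Hcrt (18.7%), Gal (12.97%), Tac1 (4.06%), Npvf (3.41%), Nts (0.600%) and Pmch (0%), beside a median of 7.08% over all protein-coding genes and 5.21% over those of at most 10 kb. No error can be put on these shares, and the order changed with the window and the peaks used. Within 20 kb Gal had the highest share (18.7%), beside 17.8% for Qrfp and 16.6% for Hcrt, and Npvf had 0%. Within 100 kb Npvf (5.29%) stood above Tac1 (2.11%) and Pmch (0.434%) above Nts (0.312%). With peaks above the median −log10 q of the list, Hcrt (12.9%) stood above Qrfp (9.45%). The windows of Qrfp and Hcrt together held 54 of the 80 peaks (67.5%). The windows did not share any peak.

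The number of peaks was set beside that of genes with as many other protein-coding genes in the window. Among genes of at most 10 kb with 6 or more other protein-coding genes in the window, as for Hcrt, the median was 13 peaks (quartiles 7 and 18), and Hcrt had 23. With 2 other genes, as for Qrfp, the median was 4 (quartiles 0 and 12), and Qrfp had 31. With 3, as for Gal, it was 7 (quartiles 0 and 14), and Gal had 16. With none, as for Tac1 and Npvf, the median was 0 and 59.9% of genes had no peak, while Tac1 had 3 and Npvf 4. With 1, as for Nts and Pmch, the median was 2 and 35.6% had no peak, and Nts had 3. How far the neighbours' own activity enters these counts was not tested.

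**Figure D3:**
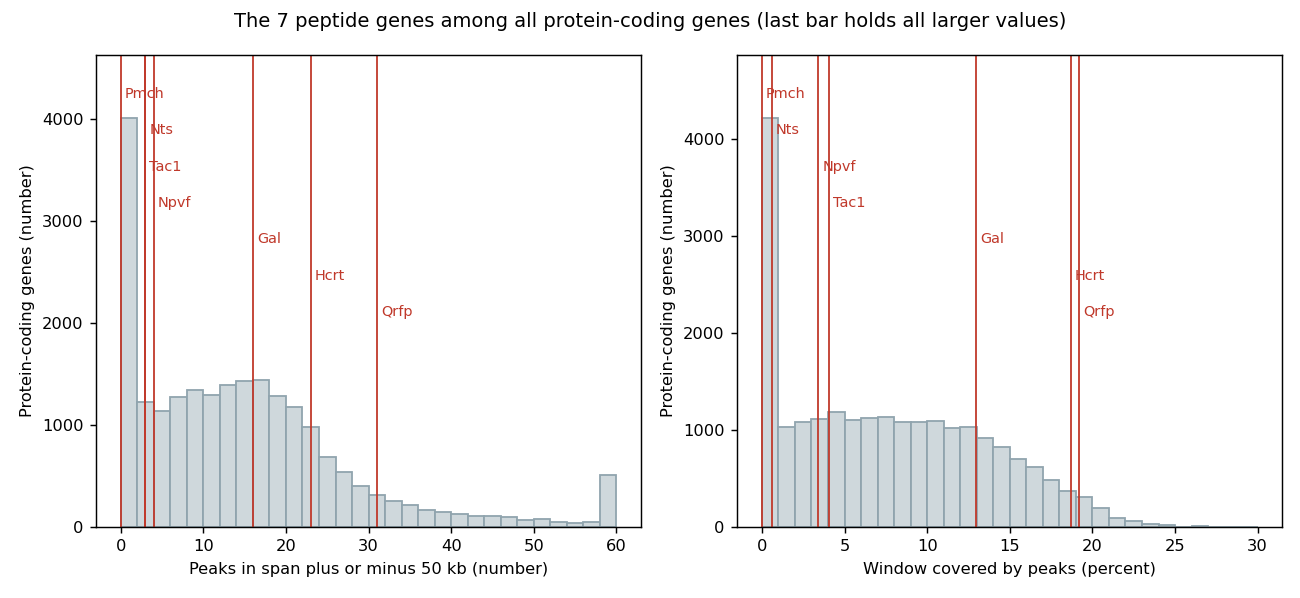
Distribution over 21887 protein-coding genes of the number of peaks in the span plus or minus 50 kb (left) and of the percent of that window covered by peaks (right), with red lines at the 7 peptide genes; the last bar holds all larger values. Pmch, Nts, Tac1 and Npvf lie below the medians of 12 peaks and 7.08%, and Hcrt and Qrfp at 23 and 31 peaks in the upper part.

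Of the 80 peaks, 6 lay at an end of a peptide gene, 10 at an end of another protein-coding gene, 1 at an end of a noncoding gene, 44 inside another gene and 19 between genes. The median fold was 3.39 for the 6 peaks at peptide gene ends, 4.21 at ends of other protein-coding genes, 2.74 inside other genes and 3.12 between genes. Over all 80 peaks the median fold was 2.998 and the median width 762 bp, beside 3.18 and 557 bp over the whole list. In 35 of the 80 peaks the summit was nearest to the start of the peptide gene. These include the 6 at peptide gene ends, and also peaks inside other genes.

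A peak at either end, within 1 kb, was present in 5 of the 7 genes, beside 69.2% of all protein-coding genes and 51.2% of those of at most 10 kb. The highest fold at an end was 6.94 in Tac1, 5.84 in Hcrt, 3.75 in Gal, 3.03 in Nts and 2.91 in Qrfp. The median of these 5 values was 3.75, beside 8.60 over the 15147 protein-coding genes with an end peak and 7.23 over those of at most 10 kb. In fold, Tac1 exceeded 36.6% of genes with an end peak and Qrfp 4.95%. The −log10 q of the same peaks gave another order: 89.5 in Hcrt, 48.1 in Tac1, 30.1 in Qrfp, 24.8 in Gal and 8.20 in Nts.

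Among 39 neuropeptide genes, the 7 included, 29 had an end peak (74.4%, Wilson 95% interval 58.9 to 85.4, which covers counting error only), with a median fold of 4.81. Over all protein-coding genes the share was 69.2% and the median fold 8.60. Among those of at most 10 kb, the size class of most genes in this list, the share was 51.2% and the median fold 7.23. The highest fold, 14.8, was at Pomc, the melanocortin precursor gene. Rln3, which encodes relaxin-3, had 11.2 and Agrp, whose product opposes melanocortin, had 9.70, and their peaks also reached ends of Il27ra and Atp6v0d1. Besides Pmch and Npvf, Gnrh1, Vip and Nms were among the 10 without. In covered share of the window, Qrfp stood between Ghrh (21.03%) and Hcrt, Hcrt between Qrfp and Kiss1 (18.5%), and Gal between Prlh (13.1%) and Nmb (12.1%). Tac1 stood between Sst (4.22%) and Npvf, Npvf between Tac1 and Grp (2.94%), and Nts between Crh (1.22%) and Pmch. Vip, like Pmch, had a share of 0.

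Receptors of the peptides carried an end peak in 14 of 15 cases (93.3%, Wilson 95% interval 70.2 to 98.8), with a median fold of 6.30. All protein-coding genes had a share of 69.2% and a median fold of 8.60. Most of the receptor genes are longer than 10 kb, a size class whose share was not computed. Protein-coding genes of at most 10 kb had a lower share than all genes, 51.2%. Both orexin receptor genes had a peak at the start, with folds of 7.29 in Hcrtr2 and 4.21 in Hcrtr1. The receptor of melanin-concentrating hormone, Mchr1, had 7.08, while its ligand gene Pmch had no peak. The highest folds were at Sort1 (9.36), a sorting receptor that binds neurotensin, Ntsr2 (8.67), a neurotensin receptor whose peak also reached Lpin1, and Tacr1 (8.06), the substance P receptor. Galr2, a galanin receptor, was the receptor gene without a peak at an end or inside the gene. Qrfpr had 6.79, and the receptors of Npvf peptides and neuropeptide FF had 7.87 (Npffr2) and 4.35 (Npffr1).

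Genes for precursor processing and dense core granules carried an end peak in 13 of 15 cases (86.7%, Wilson 95% interval 62.1 to 96.3), with a median fold of 8.13. Beside this, the share over all protein-coding genes was 69.2% and the median fold 8.60. The interval covers counting error only and is not used as a test. The highest were Chgb, a granule protein, with 13.9, the carboxypeptidase gene Cpe with 12.3, and Qpct, which forms N-terminal pyroglutamate, with 11.6. Scg3 and Cadps2 had none at an end of the span but a peak at a listed start inside it, with folds of 17.1 and 5.89. All 12 genes of the list with a listed start had a peak there, beside 65.4% of all protein-coding genes with a listed start.

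Transcription factors of the lateral and dorsomedial hypothalamus had an end peak in 15 of 18 cases (83.3%, Wilson 95% interval 60.8 to 94.2), with a median fold of 4.45. Here too the share over all protein-coding genes was 69.2% and the median fold 8.60, and the interval is not used as a test. The highest were Tcf7l2 with 6.86, Lhx9, which takes part in specifying orexin neurons, with 5.497, and Otp with 5.49. No peak overlapped a listed start of Lhx9. Of the 16 genes of the list with a listed start, 12 had a peak there (75%), beside 65.4% of all protein-coding genes with a listed start. Ebf2, Lhx8 and Hmx2 had none at an end. Hmx2 had a peak of 5.39 at a listed start inside its span, Lhx8 had none at its listed start and a highest fold of 3.54 inside the gene, and Ebf2, with no listed start, reached 5.35 inside the gene. Transmitter and partner genes, of which 5 also stand in another list, had an end peak in 14 of 15 cases (93.3%, Wilson 95% interval 70.2 to 98.8). This again stands beside 69.2% of all protein-coding genes. Their median fold was 5.14. Cbln1 (6.36), the stress hormone gene Crh (6.36) and Cartpt (6.21) were highest, and Igfbp3 had none at an end but a peak of 7.82 at a listed start. Pdyn and Nptx2, which orexin neurons co-express, had 5.39 and 5.397.

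**Figure D4:**
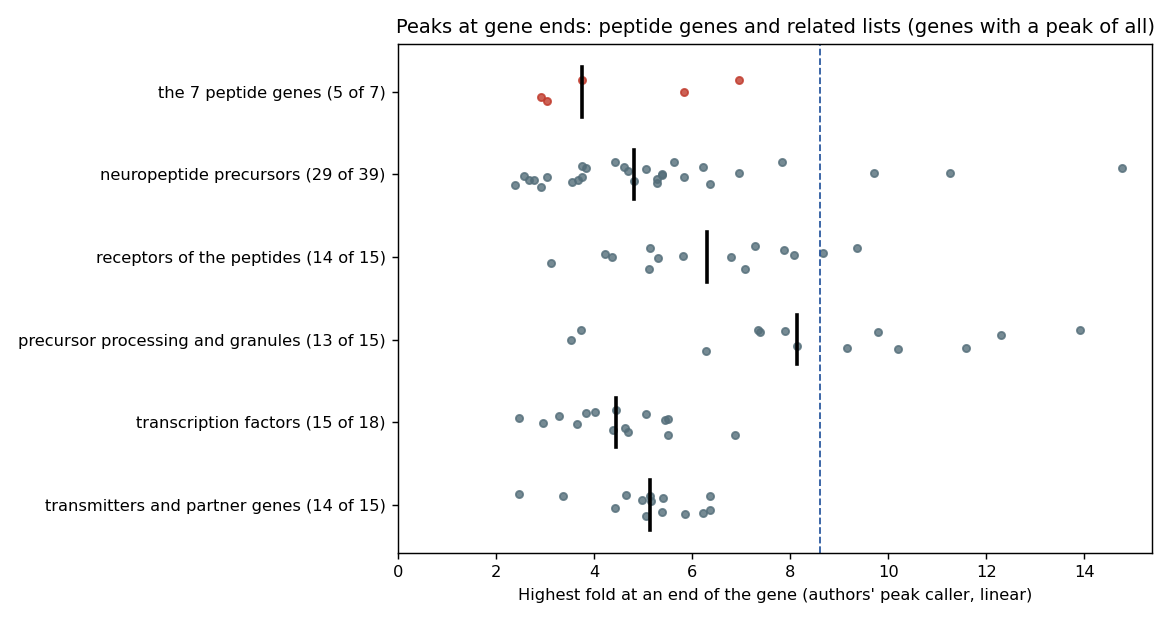
Highest fold at an end of each gene with an end peak (points, x axis, linear), for the 7 peptide genes (red) and 5 gene lists (grey), with the number of genes with a peak of all in the list. Black bars are medians (3.75 for the 7 genes, 4.81, 6.30, 8.13, 4.45 and 5.14 down the lists), and the dashed line is the median of all protein-coding genes with an end peak, 8.60. The neuropeptide list includes the 7 genes.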

How the data were processed

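Peaks of the 3 bulk CUT&Tag samples were analysed from 1 deposited narrowPeak list without header, read by column order. The fold ratio, the −log10 q, the score and the summit position are per-peak values deposited by the authors, and the score was not used further. Per the submitters' processing notes, the tools were UMI-tools 1.1.4, STAR 2.7.10a, MACS2, cutadapt 4.5 and BWA 0.7.17 and the build was mm10, without stated roles. Settings of the peak caller, its background and how replicates were combined are not given in these sources, and peaks cannot be traced to a replicate. A threshold or background fixed by the caller decides which weak peaks are listed, so absence of a peak refers to this list alone.

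Gene spans came from a RefSeq table of GRCm38.p6, the assembly of mm10, and starts and strand from a promoter table of that build. All 7 genes matched by symbol, with 1 start each. Of 21887 protein-coding genes, 17492 had a listed start. A peak counted in a window or at an end when any base overlapped it. Peaks were put, in this order, at an end of the peptide gene (1 kb), inside it, at an end of another protein-coding gene, at an end of another gene, inside another gene, or between genes. Overlaps were tested on simulated data before use. Coordinates are 1-based. Python 3.11.15 with pandas 2.3.3, numpy 2.4.6 and scipy 1.17.1 was used.

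No test was run, since 1 pooled list has no replicates: values stand beside the same measure over all protein-coding genes, and Wilson 95% intervals cover counting error only. In each of the 5 lists, the 3 genes with the highest fold at an end and up to 5 without a peak were named; the others named are members, neighbours, or receptors and partners chosen after their values were seen. The members are defined by name alone, but they and the lists and measures were chosen with earlier results of these data known. The 7 genes are thus no independent sample. Peptide motifs of the precursors were planned but not used here. Alternatives were 20 and 100 kb windows, summits, stricter peaks, other end widths and joined intervals. Limits to the start were added later.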

Additional observations from a re-analysis of the deposited data

How the results depend on the processing

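With windows of 20 kb the 7 genes had 32 peaks together and with 100 kb 138, in place of 80. They had 38 peaks above the median −log10 q and 15 with a fold of at least 4.24, the upper quartile of the list. Members with an end peak numbered 2 (Hcrt and Tac1), in place of 5, with peaks of at least that fold, and 3 when the peak had to overlap 250 bases before to 50 after the start. Within 1 kb of the start only, 5 had a peak. The share of all protein-coding genes was not computed for that limit, so this count has no background beside it. Both limits to the start were chosen after seeing the data. With peaks of at least that fold, 18 of 39 neuropeptide genes and 9 of 18 transcription factor genes had an end peak, in place of 29 and 15. Over all protein-coding genes 58.6% had an end peak at that fold, in place of 69.2%. The shares of the 7 genes and of both lists thus lay below that of all genes here and above it in the main setting. That these counts fell or rose follows from the construction of the alternatives, which take in fewer or more peaks. The other 43 recomputed totals over the 7 genes or a gene list stayed within 1.5 times the reported ones. Counts for single windows moved more: with 20 and 100 kb, Qrfp had 11 and 52 peaks in place of 31, Hcrt 8 and 38 in place of 23, Gal 10 and 27 in place of 16, and Npvf 0 and 14 in place of 4. Pmch had 1 peak within 100 kb and Nts 1 within 20 kb. With the stricter fold Hcrt had 5 peaks, Gal 4, Qrfp 3, Npvf 2, Tac1 1 and Nts 0. The order of the covered shares also changed, as given with those shares.

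Nts lost its end peak above the median −log10 q. Npvf had no peak within 20 kb of the gene and a highest fold of 18.3 within 100 kb, against 5.26. Without peaks at ends of other protein-coding genes, or within 20 kb, the highest fold of the Hcrt window was 5.84 and that of the Gal window 6.12, in place of 12.3 and 12.7. No paired analysis was possible because the bulk samples share 1 pooled list, and for the same reason no replicate could be left out in turn. Unknown depth limits any reading of genes without a listed peak.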
